A study of Rattus norvegicus with 6 samples.

Results

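The genes described here encode the matrix metalloproteases (Mmp), the membrane-anchored ADAM proteases, the secreted ADAMTS proteases and the tissue inhibitors of metalloproteases (Timp). They were taken from the deposited count table by name, as the protein-coding rows whose symbol is one of these 4 family names followed by a number and at most 1 letter. This gave 58 genes of the 20609 in the table, with 17 Mmp, 21 Adam, 16 Adamts and 4 Timp genes. The RNA came from cells labelled PC12, the name of a rat line derived from an adrenal pheochromocytoma, in 3 samples that received a control plasmid and 3 in which PCBP-1, a poly(C)-binding RNA regulator, was overexpressed (PCBP1-OE). The methods describe Lipofectamine transfection of a plasmid that carries PCBP-1 with an EGFP tag. The share of cells that took up either plasmid is not given in the sources used here. Nothing in the labels says that the 3 samples of a group were independent cultures, so the p-values measure the spread between these samples, which may be technical. The libraries held from 19730209 to 22315623 reads counted on genes. Levels are given in CPM, the reads of a gene per 1000000 reads on the tested genes of its library, after scaling between libraries by the TMM method. A change is the log2 ratio of PCBP1-OE over control from the fit across all tested genes, given ± its standard error.

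The active proteases of these families use a zinc ion in the active site and are made as inactive proenzymes. Matrix metalloproteases cut collagens and other matrix proteins, either as secreted enzymes or, in the membrane-type subgroup, at the cell surface. ADAMs are best known as sheddases, which release the outer part of membrane proteins such as Notch receptors, amyloid precursor protein and growth factor precursors. ADAMTS enzymes are secreted and cut proteoglycans, procollagens and microfibril proteins. TIMPs bind to the active site of most of the Mmp enzymes and, with more restricted choice, of some ADAM and ADAMTS enzymes. In neurons and glia these families act in neurite outgrowth, matrix turnover and receptor processing.

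The labelled cell type was checked against chromaffin markers, and most of them were near 0. The granule proteins Chga and Chgb were counted 0 to 3 and 0 to 9 times per library, and the catecholamine enzymes Dbh and Ddc 0 to 5 and 0 to 4 times. Tyrosine hydroxylase (Th) had 141 to 185 reads and the vesicular transporter Slc18a1 17 to 28. By contrast the neural crest and glial transcription factor Sox10 had 7160 to 9007 reads and the calcium-binding glial protein S100b 4143 to 5339, a pair of genes chosen after their values were seen. These levels go against the label in all 6 libraries, so the identity of the cells as PC12 is in doubt. Of the fibroblast markers, 4 of 6 were matched in the table. Dcn was at 0 to 5 reads per library, Col1a1 at 61 to 74, Pdgfrb at 535 to 676 and Pdgfra at 3939 to 4941. The summed level of these 4 was 254 to 256 CPM in controls against 230 to 240 in PCBP1-OE, most of it from Pdgfra. Of the leukocyte markers 4 of 5 were matched, with Ptprc at 0 to 3, Csf1r at 1 to 4 and Itgam at 4 to 6 reads per library, and a summed level of 3.98 to 4.07 CPM in controls against 2.995 to 3.52 in PCBP1-OE. Most of that sum was the lysosomal protein Cd68, with 68, 78 and 81 reads in controls and 57, 56 and 60 with PCBP1-OE. The endothelial markers (3 of 4 matched, Kdr at 0 to 4 and Cdh5 at 4 to 9 reads) summed to 4.07 to 5.62 CPM in controls against 4.95 to 5.90 in PCBP1-OE, most of it from the receptor Tek with 77 to 120 reads per library. In the quasi-likelihood test described below, no gene of these marker lists was called (adjusted p = 0.0644 for Pdgfra and 0.185 for Cd68). The part of the differences in these sums in the changes of the protease genes was not tested. In RNA from whole cultures, fewer cells of a type and less RNA per cell cannot be told apart. The transcript of PCBP-1 was not analysed here, and its rise in the PCBP1-OE libraries is therefore unchecked.

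Of the 58 genes, 7 Mmp genes lie in 1 cluster on chromosome 8, where the RefSeq gene order is Mmp13, Mmp12, Mmp1b, Mmp3, Mmp1, Mmp10, Mmp8, Mmp27, Mmp20 and Mmp7. No protein-coding row of the count table carried the symbols Mmp12, Mmp1b or Mmp27, so these genes were not analysed here. The cluster holds the inducible collagenases, stromelysins and matrilysin, whose promoters are known for AP-1 sites, the element bound by Fos and Jun proteins, set just upstream of a TATA box. RefSeq windows of 250 bases before to 50 bases after the start site (GRCr8) were matched for 36 of the 58 genes by symbol. They were searched for the AP-1 letters TGAGTCA on both strands and for TATAAA on the strand of the gene, read 5′ to 3′. AP-1 letters were found in 6 of the 36 windows (16.7%), against 4.63% of all 33469 windows, and TATAAA in 8 (22.2%), against 8.80%. For each member the first listed window was used. The set of all windows was not limited to protein-coding genes or to 1 window per gene, so the sets are not matched. Of the 6 with AP-1 letters, 5 belong to the cluster and also hold TATAAA, and the other is Adam19. The windows of the cluster genes Mmp8 and Mmp20 held no AP-1 letters, and of these only Mmp20 held TATAAA. Most analysed genes of the chromosome 8 cluster had few reads in these libraries. The stretches around the AP-1 letters are shown because 5 of the 6 lie in that cluster. Each is 30 bases on GRCr8, read 5′ to 3′ on the strand of the gene, with the AP-1 letters in capitals.
Mmp13, chr8:12782752-12782781, plus strand: accccaagtggTGACTCAtcactattgctc
Mmp3, chr8:12925199-12925228, plus strand: ggaagcaattaTGAGTCAgtttgcgggtga
Mmp1, chr8:12943358-12943387, plus strand: gttgtcaaccaTGAGTCAcgtagcctctgg
Mmp10, chr8:12974635-12974664, plus strand: tagcacccacaTGAGTCAtgcttagtgacc
Mmp7, chr8:13132952-13132981, plus strand: aagcatgagaaTGAGTCAccgattcccaca
Adam19, chr10:30992581-30992610, plus strand: tgcccttcaccTGAGTCAgcgatgctccca

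In the 5 cluster genes the first AP-1 base lies between 84 and 61 bases before the start site, and in Adam19 169 bases before it. A match of letters is a description of the window and does not show that a factor binds there. The 20 windows of genes with enough reads for a test had a median GC content of 65.0%, the 16 windows of the others 57.3%, and all windows 51.7%.

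Of the 58 genes, 28 had enough reads to be tested and 30 did not, under a filter that asks for about 10 reads in each of 3 libraries. The 28 comprised 8 Mmp, 10 Adam, 7 Adamts and 3 Timp genes. Among the 58, 34 had at least 1 read in every library and 27 stayed below 10 reads in all of them. Timp2, an inhibitor that also helps membrane-type proteases to activate Mmp2, had by far the most reads, 10561 to 12745 per library. Reads also grow with transcript length, which was not available, so levels are compared between libraries and not between genes.

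**Figure D1:**
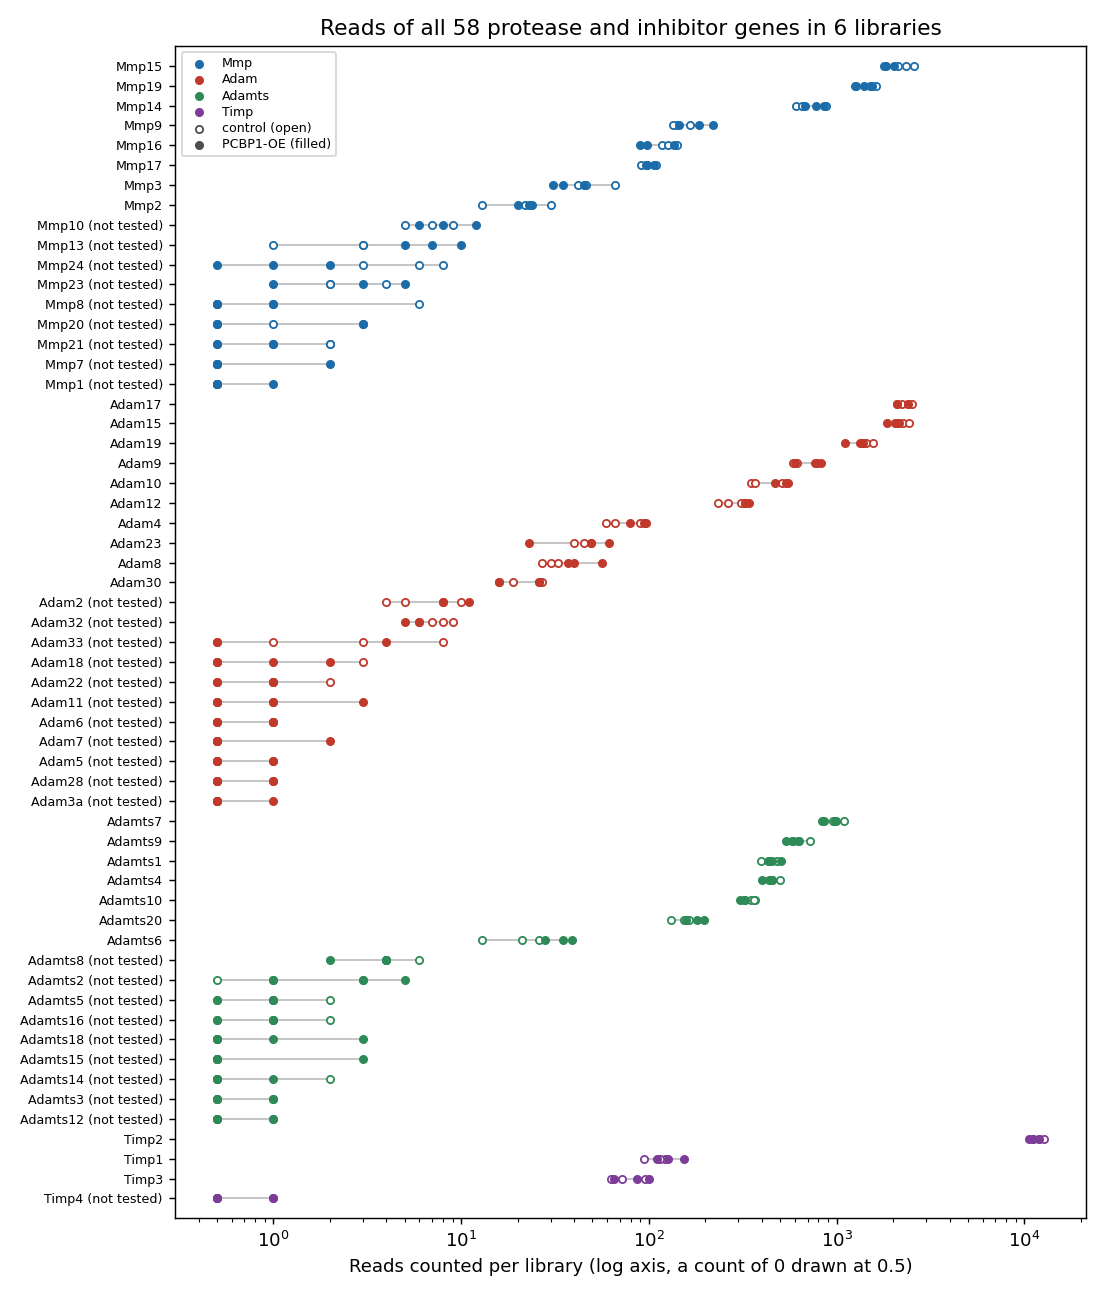
Reads per library for all 58 genes, grouped by family, on a log axis (a count of 0 is drawn at 0.5). Open points are the 3 controls and filled points the 3 PCBP1-OE libraries; the 30 genes too low to test lie at or below 12 reads, while Timp2 lies between 10561 and 12745.

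Among the little-expressed genes, the collagenase Mmp1 and the matrilysin Mmp7 were each at 0 in 5 of the 6 libraries, with 1 and 2 reads in total. The collagenase Mmp8 was at 0 in 3 libraries and had 8 reads in total, 6 of them in control replicate 2. The collagenase Mmp13 had 3, 1 and 3 reads in controls against 7, 5 and 10 in PCBP1-OE. The stromelysin Mmp10 had 5, 9 and 7 reads in controls against 12, 6 and 8 in PCBP1-OE. Among the analysed genes of the chromosome 8 cluster, Mmp3 was alone in reaching the test. The brain-enriched membrane-type protease Mmp24 had 3, 6 and 8 reads in controls against 2, 0 and 1 in PCBP1-OE. The groups did not overlap for Mmp13 and Mmp24, but both had too few reads for the test. Enamelysin Mmp20 (7 reads in total), Mmp21 (6) and Mmp23 (17) complete the untested Mmp genes.

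The untested Adam genes were mostly those known from testis or epididymis. Adam2 had 4 to 11 reads per library and Adam32 5 to 9. The groups of Adam32 did not overlap, with 8, 9 and 7 reads in controls against 6, 6 and 5 in PCBP1-OE. Adam3a, Adam5, Adam6, Adam7 and Adam18 had 1, 2, 3, 2 and 6 reads in total. Adam11 and Adam22, neuronal ADAMs without protease activity, had 5 reads each in total, Adam28 had 2 and Adam33 had 16. Of the untested Adamts genes, the procollagen N-propeptidases Adamts2, Adamts3 and Adamts14 had 13, 2 and 3 reads over the 6 libraries. Adamts5, a main aggrecanase of cartilage, had 5 reads and Adamts8 had 24, while Adamts12, Adamts15, Adamts16 and Adamts18 had 2, 3, 5 and 4. Timp4, the inhibitor known from heart and brain, had 2 reads in total. These genes had too few reads for the test, so whether they changed is not known. A fit without the read filter covered all 58 genes, and none of the genes left out by the filter was among its calls.

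The comparison of PCBP1-OE with control asks which of these genes moved when PCBP-1 was overexpressed. It found 1 protease that rose, Adam10, and 1 that fell, Mmp15, at 1.29-fold and 0.816-fold of control. The test was edgeR's quasi-likelihood test on all 12624 genes that passed the filter, with p-values adjusted by the Benjamini-Hochberg method over all of them and a gene called at an adjusted p of 0.05 or less. The 2 calls among the 28 tested genes are 7.14%, beside 9.45% of all tested genes called. Over all tested genes 4.45% were called higher and 5.0% lower, so the count of called members does not exceed the background. None of the 28 was both called and changed by 2-fold, which the study required, and 0.190% of all tested genes were. At an unadjusted p below 0.05 there were 10 of the 28 (35.7%), beside 28.4% of all tested genes. In 13 of the 28 (46.4%) the 3 libraries of a group lay all above or all below those of the other, beside 30.6% of all tested genes. The direction was split, with 15 of the 28 above 0 and 13 below, a median log2 change of 0.02 and a median over all tested genes of 0.0029. Changes ran from 0.731-fold in Mmp3 to 1.73-fold in Adamts6, neither of which passed the test.

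**Figure D2:**
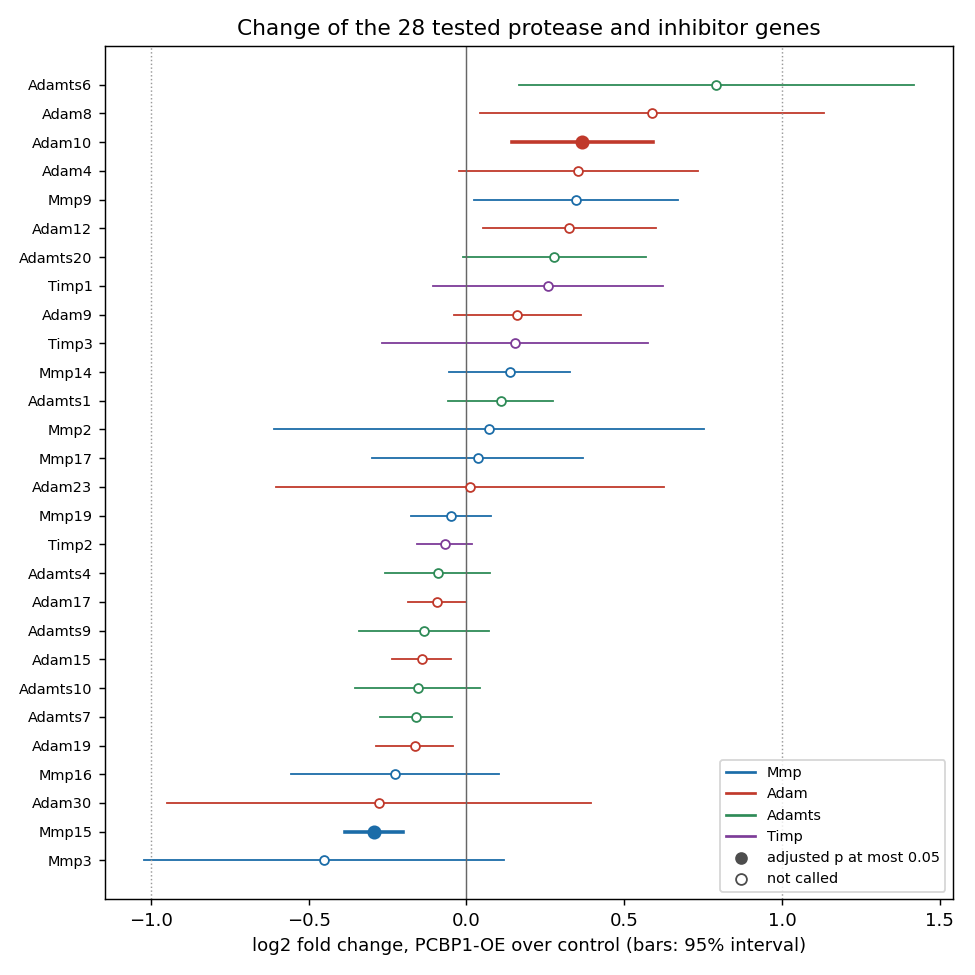
Log2 fold change of PCBP1-OE over control for the 28 tested genes, with 95% intervals from the standard error of the fit. Filled points mark the 2 called genes, Adam10 at 0.37 and Mmp15 at -0.29; dotted lines mark a 2-fold change, which no estimate reaches.

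Mmp15 (ENSRNOG00000012622, chromosome 19) encodes a membrane-type protease held in the plasma membrane by a transmembrane segment. Its level was 109, 112 and 115 CPM in controls against 92.1, 91.3 and 90.8 in PCBP1-OE. All 3 PCBP1-OE libraries lay below all 3 controls, and the means were 112 ± 3.18 and 91.4 ± 0.632 (SD, n = 3 each). The log2 change was -0.29 ± 0.04, or 0.816-fold, with an adjusted p of 0.00445. It passed in every fit with 1 library left out except the one without control replicate 2, where the adjusted p was 0.0582 at a log2 change of -0.29.

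The other tested membrane-type proteases were not called. Mmp14, the main activator of Mmp2 at the cell surface, was at 31.0, 31.4 and 39.1 CPM in controls against 39.0, 38.3 and 34.5 in PCBP1-OE. Control replicate 3 was the highest of the 6 and the groups overlapped, with a log2 change of 0.14 ± 0.09 (adjusted p = 0.334). Without control replicate 3 it was 0.26, with an adjusted p of 0.0196. Mmp16 was at 5.97, 6.04 and 6.33 CPM in controls against 6.17, 4.46 and 5.003 in PCBP1-OE, and the lipid-anchored Mmp17 differed by 0.04 on the log2 scale. These intervals were -0.05 to 0.33 for Mmp14, -0.56 to 0.10 for Mmp16 and -0.30 to 0.37 for Mmp17. The difference between Mmp15 and each of these genes was not tested.

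The secreted Mmp genes did not pass the test. The gelatinase Mmp9 was at 7.19, 6.47 and 7.36 CPM in controls against 8.44, 10.9 and 7.40 in PCBP1-OE. The groups did not overlap, but control replicate 3 and PCBP1-OE replicate 3 were nearly level, and the log2 change of 0.35 ± 0.15 came with an adjusted p of 0.148. The other gelatinase, Mmp2, was at 0.663 to 1.44 CPM in controls against 1.02 to 1.19 in PCBP1-OE. The stromelysin Mmp3 was at 3.37, 2.20 and 1.87 CPM in controls against 1.59, 1.54 and 2.30 in PCBP1-OE, from 31 to 66 reads per library. Its groups overlapped and its log2 change of -0.45 ± 0.26 (adjusted p = 0.285) had an interval of -1.02 to 0.12. Mmp19 was at 64.5, 72.5 and 72.7 CPM in controls against 70.0, 69.2 and 63.8 in PCBP1-OE, with an interval of -0.17 to 0.08 and an adjusted p of 0.635.

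Adam10 (ENSRNOG00000054257, chromosome 8) encodes a sheddase of Notch receptors, amyloid precursor protein and N-cadherin. It was at 17.9, 17.6 and 22.8 CPM in controls against 24.9, 26.5 and 23.8 in PCBP1-OE, with means of 19.4 ± 2.96 and 25.1 ± 1.35 (SD, n = 3 each). The groups did not overlap, but control replicate 3 lay just under the lowest PCBP1-OE library. The log2 change was 0.37 ± 0.10, or 1.29-fold, with an adjusted p of 0.0437. The call was lost without control replicate 1 (adjusted p = 0.155) or 2 (0.185) and without PCBP1-OE replicate 1 (0.141), 2 (0.159) or 3 (0.0597), with log2 changes of 0.31 to 0.41 in these fits. Without control replicate 3 the log2 change was 0.50 and the adjusted p 9.38e-04.

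Adam17, the sheddase of tumor necrosis factor and of several growth factor precursors, lay on the other side of 0. It was at 113, 116 and 112 CPM in controls against 108.5, 104 and 107 in PCBP1-OE, so that the groups did not overlap. The log2 change was -0.09 ± 0.04 with an interval of -0.18 to -0.0018, and the adjusted p was 0.168. Whether Adam10 and Adam17 differ in their response was not tested.

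Adam15 and Adam19, active ADAMs that bind integrins or shed neuregulins, had groups that did not overlap. Adam15 was at 108, 109 and 108 CPM in controls against 97.3, 102 and 95.1 in PCBP1-OE, a log2 change of -0.14 ± 0.04 (adjusted p = 0.0580). It passed without control replicate 3 (0.0374) and by edgeR's exact test (0.0469). Adam19 was at 69.8, 68.6 and 69.7 CPM in controls against 62.9, 65.8 and 56.8 in PCBP1-OE, with a log2 change of -0.16 ± 0.06 (adjusted p = 0.0786). The 3 Adam genes with the most reads, Adam17, Adam15 and Adam19, were at 0.892- to 0.937-fold of control and did not pass the test.

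The remaining tested Adam genes were mostly above 0 and also did not pass. Adam8, a protease of leukocytes and reactive glia, was at 1.53, 1.58 and 1.20 CPM in controls against 1.68, 2.78 and 2.04 in PCBP1-OE. These groups did not overlap, and the log2 change was 0.59 ± 0.25 (adjusted p = 0.146) from 27 to 56 reads per library. Adam12, a protease of muscle and glia, was at 15.7, 11.2 and 11.8 CPM in controls against 14.7, 17.0 and 16.7 in PCBP1-OE. Control replicate 1 lay above PCBP1-OE replicate 1, and the log2 change of 0.33 ± 0.13 came with an adjusted p of 0.113. Adam9 was at 29.9, 29.5 and 35.3 CPM in controls against 37.4, 37.9 and 30.6 in PCBP1-OE. As in Adam10 and Mmp14, control replicate 3 was the highest control. Adam4 had a log2 change of 0.35 ± 0.17 (adjusted p = 0.203), with 3.01, 3.16 and 4.01 CPM in controls against 4.36, 3.92 and 4.80 in PCBP1-OE. Adam23, a neuronal adhesion ADAM without protease activity, ranged from 2.01 to 2.35 CPM in controls and 1.17 to 3.02 with PCBP1-OE. Adam30 ranged from 0.969 to 1.29 CPM in controls and 0.726 to 1.33 with PCBP1-OE. The spread of these last 2 genes left intervals of -0.60 to 0.63 and -0.95 to 0.40.

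**Figure D3:**
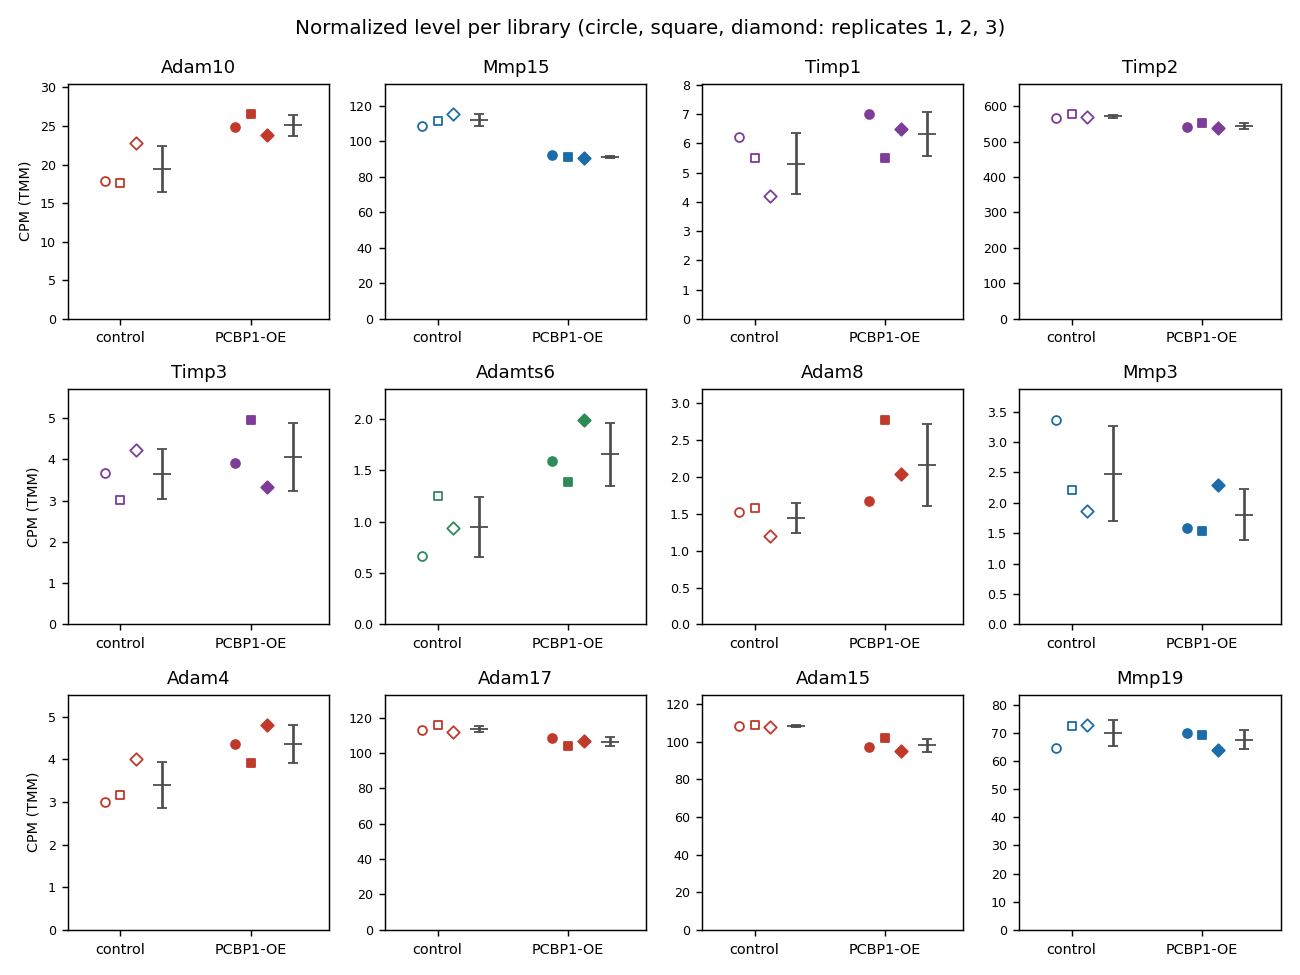
CPM per library (TMM-scaled, axes from 0) for the 12 genes that were called, encode a TIMP with enough reads, changed most in the fit or had the most reads. Open symbols are controls, filled symbols PCBP1-OE, bars the mean ± SD of 3 libraries; Mmp15 shows a clear gap between groups, while control replicate 3 of Adam10 (22.8) lies next to PCBP1-OE replicate 3 (23.8).

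No Adamts gene was called. Adamts6, which acts on the microfibrils of the matrix, had the largest estimate of all tested members, from 0.663, 1.25 and 0.936 CPM in controls to 1.59, 1.39 and 1.99 in PCBP1-OE. The groups did not overlap, and the log2 change of 0.79 ± 0.29 came with an adjusted p of 0.0945 from 13 to 39 reads per library. Its relative Adamts10 was at 16.2 to 18.0 CPM in controls against 14.7 to 16.5 in PCBP1-OE. Adamts7, which cuts cartilage oligomeric matrix protein, was at 48.8, 47.8 and 48.6 CPM in controls against 44.5, 42.3 and 42.9 in PCBP1-OE. All 3 PCBP1-OE libraries were below the controls by more than the spread within a group, but the log2 change of -0.16 ± 0.05 came with an adjusted p of 0.0718.

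None of the 4 tested proteoglycan-cleaving Adamts genes was called. Adamts1 was at 20.2 to 21.4 CPM in controls against 22.1 to 23.1 in PCBP1-OE, and Adamts20 at 6.28 to 7.85 and 8.07 to 9.71, both without overlap. Adamts4 was at 21.8 to 22.5 CPM in controls against 20.4 to 21.6 in PCBP1-OE, also without overlap, and Adamts9 at 26.0 to 34.5 and 26.7 to 29.5. Their adjusted p-values were 0.380 for Adamts1, 0.193 for Adamts20, 0.470 for Adamts4 and 0.379 for Adamts9. Without control replicate 3, Adamts9 had a log2 change of -0.25 and an adjusted p of 0.0252.

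None of the inhibitors was called. Timp1 was at 6.22, 5.51 and 4.19 CPM in controls against 6.99, 5.50 and 6.48 in PCBP1-OE, with overlapping groups and a log2 change of 0.26 ± 0.17 (adjusted p = 0.341). Timp2 was at 567, 577 and 568 CPM in controls against 540, 553 and 539 in PCBP1-OE. The groups of Timp2 did not overlap after scaling, yet the log2 change was only -0.07 ± 0.04 (adjusted p = 0.281), with an interval of -0.16 to 0.02. Without the scaling factors the Timp sum, most of it Timp2, overlapped, at 558.8 to 580.1 CPM in controls and 545.4 to 574.1 in PCBP1-OE. Timp3, the inhibitor that binds to the matrix and also acts on Adam17, was at 3.67, 3.02 and 4.24 CPM in controls against 3.90, 4.96 and 3.32 in PCBP1-OE, with an adjusted p of 0.646. Its log2 change was 0.15 with all libraries and -0.01 without PCBP1-OE replicate 2.

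Summed over each family, the reads of Mmp genes made up 228, 237 and 249 CPM in controls against 224, 223 and 211 in PCBP1-OE. Without Mmp15 the range was 119 to 134 CPM in controls against 120 to 132 in PCBP1-OE, so the gap between groups in the Mmp sum was no longer seen once Mmp15 was left out. Adam genes summed to 360 to 369 CPM in controls against 340 to 364 in PCBP1-OE, and these ranges overlapped. Adamts genes summed to 143 to 151 and 140 to 142 CPM, and Timp genes to 577 to 585 and 549 to 563, of which all but 8.43 to 10.9 CPM was Timp2. The sum over all 58 genes was 1319 to 1338 CPM in controls against 1242 to 1290 in PCBP1-OE, but without the scaling factors it overlapped, at 1277 to 1345 and 1234 to 1315. The Mmp, Adamts and Timp sums overlapped likewise without scaling factors, and the Adamts sum also with upper-quartile scaling. The sums are given as a description, and their scalings were compared after the data had been seen.

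Genes that work with these proteases were taken from 3 lists with 76 genes, of which 73 were matched and 57 tested. The lists hold activators, cofactors and inhibitors, membrane proteins shed by ADAMs, and matrix proteins that are cut. Of the 57, 2 rose and 8 fell, together 17.5%, beside 9.45% of all tested genes. The lists were chosen with earlier results of these data known, so these shares are a description and do not test the lists. Among the activators, cofactors and inhibitors 0 of 22 rose and 3 fell, with a median log2 change of -0.06. Serpine2, an inhibitor of thrombin and plasminogen activators, was at 3723, 3747 and 3461 CPM in controls against 3151, 3176 and 3207 in PCBP1-OE, and its log2 change of -0.20 came with an adjusted p of 0.0208. Basigin (Bsg), a surface protein known as an inducer of Mmp expression, was at 650, 655 and 604 CPM in controls against 558, 554 and 577 in PCBP1-OE (log2 change -0.18, adjusted p = 0.0327). Pcolce, an enhancer of procollagen C-proteinase, was the third, with a log2 change of -0.18 and an adjusted p of 0.0282. The proenzyme convertase Furin (-0.03), the iRhom protein Rhbdf1 that brings Adam17 to the surface (-0.13), its partner Frmd8 (-0.04) and the membrane inhibitor Reck (-0.08) were not called, with their log2 changes in parentheses.

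Among the membrane proteins shed by ADAMs, 1 of 22 rose and 2 fell, with a median log2 change of 0.03. Notch2, a receptor cut by Adam10 on ligand binding, was at 13.6, 8.86 and 8.70 CPM in controls against 14.8, 18.1 and 15.6 in PCBP1-OE. The groups did not overlap, and its log2 change of 0.64 ± 0.16 came with an adjusted p of 0.0266. Tnfrsf1a, the receptor for tumor necrosis factor that Adam17 sheds, fell from 74.7, 80.1 and 72.2 CPM to 62.4, 63.5 and 61.8, a log2 change of -0.27 with an adjusted p of 0.0111. The heparan sulfate proteoglycan Sdc1 fell as well, with a log2 change of -0.25 and an adjusted p of 0.00978. App, the amyloid precursor, had a log2 change of 0.02, N-cadherin (Cdh2) -0.02, Notch1 0.11 and Hbegf 0.01, and none of these was called.

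Among the matrix proteins, 1 of 13 rose and 3 fell, with a median log2 change of -0.11. Thbs1, a thrombospondin, was at 47.6, 42.3 and 66.8 CPM in controls against 77.9, 77.8 and 67.4 in PCBP1-OE. Control replicate 3 was the highest control, as in Adam10, and the log2 change of 0.51 ± 0.12 came with an adjusted p of 0.0276. With DESeq2 the adjusted p of Thbs1 was 0.092. Tenascin-C (Tnc) fell by 0.22 on the log2 scale (adjusted p = 0.0184), the link protein Hapln4 by 0.25 (0.0125) and biglycan (Bgn) by 0.15 (0.0485). The call of Bgn was lost with upper-quartile scaling (adjusted p = 0.0734), with edgeR's exact test (0.0527) and with the stricter filter of 1 CPM in 3 libraries (0.0501). The lecticans did not pass, with log2 changes of -0.03 for Vcan and -0.38 for Ncan, and Acan and Bcan had too few reads for the test. Without control replicate 2 or PCBP1-OE replicate 2, 0 of the genes of these 3 lists were called by the quasi-likelihood test, with 11 and 12 at an unadjusted p below 0.05. There were 2 calls without PCBP1-OE replicate 1 and 4 without control replicate 1. Of all tested genes, 0.375% were called without control replicate 2 and 1.06% without PCBP1-OE replicate 2. The share was 1.32% without PCBP1-OE replicate 1 and 1.92% without control replicate 1.

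**Figure D4:**
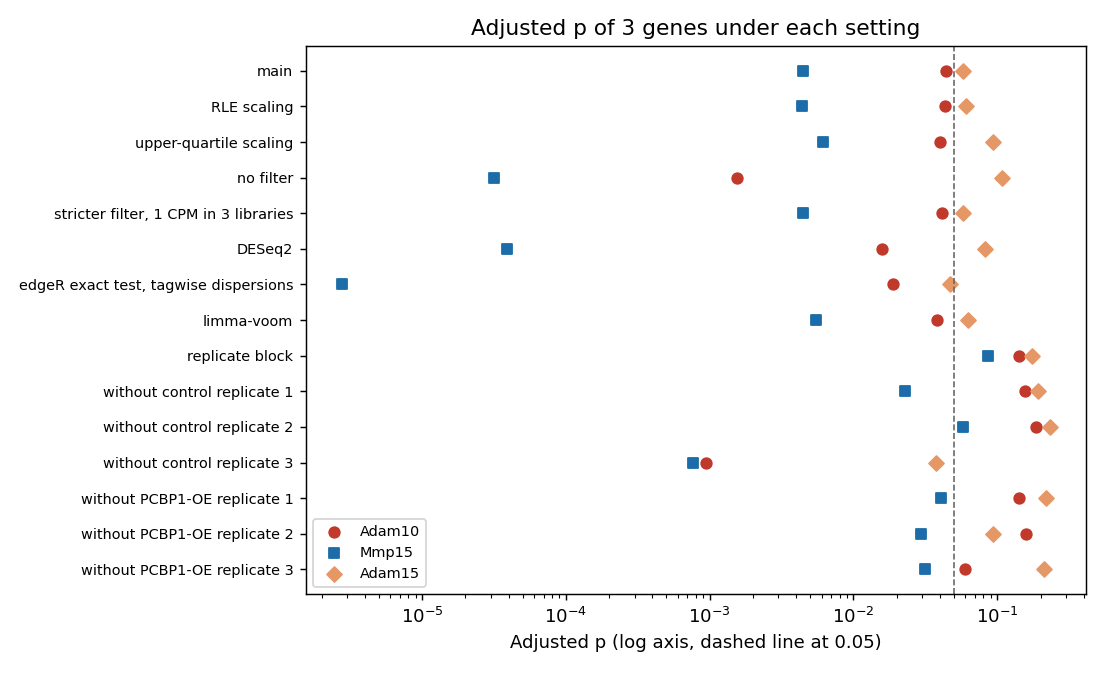
Adjusted p of Adam10, Mmp15 and Adam15 in the reported comparison (main) and under 14 other settings, on a log axis with the threshold of 0.05 dashed. Mmp15 is above the threshold in 2 settings and Adam10 in 6, while Adam15 is below it in 2.

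Across these settings Mmp15 was called in 12 of 14 and Adam10 in 8 of 14. The log2 change stayed between -0.31 and -0.27 for Mmp15 and between 0.31 and 0.50 for Adam10. By contrast the number of called members moved from 0 to 5 with the library left out. The 5 called without control replicate 3 were Adam10, Adam15, Adamts9, Mmp14 and Mmp15, while 22.3% of all tested genes were called in that fit. Without control replicate 2, 0 members and 0.375% of all tested genes were called by the quasi-likelihood test, with 7 members at an unadjusted p below 0.05.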

How the data were processed

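RNA-seq libraries of 3 control and 3 PCBP1-OE samples were grouped by their titles. The deposited values are whole-number counts per gene, not normalized by the authors. According to the methods, reads were trimmed with FASTX-Toolkit, aligned by TopHat2 with at most 4 mismatches to Rnor_6.0, and uniquely mapped reads were counted. The submitters' processing notes name the build GRCh38, while the gene identifiers are rat Ensembl identifiers. Neither the counter nor its use of strand or annotation is named in those sources, so counts of overlapping genes and of close copies (Adam4 and Adam6, Mmp1) are uncertain.

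The counts were tested with edgeR 4.0.16 (R 4.3.3, quasi-likelihood, TMM, filterByExpr with minimum count 10 and minimum total 15), which kept 12624 genes and left out 7985. Intervals are 95%, from the log2 fold change, its F statistic and the total (prior plus residual) degrees of freedom of the quasi-likelihood fit. Members and gene lists were chosen with earlier results of these data known. The genes given in full are members with an adjusted p of 0.05 or less, the Timp genes, the 5 tested members with the largest change and the 5 with the most reads. Other members and called genes of the lists are given with fewer values. The alternatives were RLE and upper-quartile scaling, other filters, DESeq2 1.42.0, edgeR's exact test, limma-voom (limma 3.58.1), a replicate block and leaving out each library. The pipeline was tested on simulated data. The median half-width of the intervals was 0.249 on the log2 scale, and depth alone did not set it. The standard error was 0.040 for Timp2, with 10561 to 12745 reads per library, and 0.043 for Mmp15, with 1779 to 2584. Promoter windows come from RefSeq (GRCr8), searched in Python 3.11.15.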

Additional observations from a re-analysis of the deposited data

How the results depend on the processing

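The count of 2 called members, 1 higher and 1 lower, was the same under RLE and upper-quartile scaling, the stricter filter, DESeq2 and limma-voom. Without a filter it was 4, with 2 higher and 2 lower, as Adam12 (adjusted p = 0.0360) and Adam19 (0.0471) were added. With edgeR's exact test 2 were lower. Of all tested genes, 8.57% to 13.3% were called in these fits, with 10.1% without a filter and 12.6% by the exact test. DESeq2 gave an adjusted p for 24 members. Leaving out 1 library gave 0 to 5 called members, 0 to 2 higher and 0 to 3 lower, while 0.375% to 22.3% of all tested genes were called. Those fits also gave 0 to 13 called genes of the 3 lists, against 10 with all libraries. With the replicate block 0 members, 0 higher, 0 lower and 0 list genes were called, and 16 of all genes, by edgeR's quasi-likelihood test, with 7 members and 12 list genes at an unadjusted p below 0.05. Deviations of same-numbered libraries correlated at -0.0776, -0.0514 and -0.0428, and no library correlated best with its own number, so the numbers were not treated as pairs. The log2 fold change of Timp3 was -0.012 without PCBP1-OE replicate 2 and 0.284 without PCBP1-OE replicate 3. Genes with about 50 reads or fewer per library had the widest intervals, up to 0.682 on either side, and the causes of the moves with single libraries were not tested.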
